A study of Mus musculus with 15 samples.

Results

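Cone photoreceptors turn light into an electrical signal through a short protein cascade, and 10 genes that encode its cone forms were followed across newborn, 3-day-old and adult mouse eyes. The set consists of the opsins Opn1sw and Opn1mw, the transducin subunits Gnat2, Gnb3 and Gngt2, the phosphodiesterase subunits Pde6c and Pde6h, the channel subunits Cnga3 and Cngb3, and the arrestin Arr3. They were picked by name as genes of the pathway, and all 10 were found among the 20418 gene symbols of the tables. Where a symbol had several transcripts, the transcript with the highest mean read count was used, which concerned Gngt2 alone among these genes. Opn1sw, Gnb3 and Pde6h lie on chromosome 6, Opn1mw and Arr3 on chromosome X, and Gnat2, Gngt2, Pde6c, Cnga3 and Cngb3 on chromosomes 3, 11, 19, 1 and 4.

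All eyes came from BALB/c mice and were taken with their eyelids, and RNA of whole eyes was sequenced in 15 libraries. The Egr1 null allele had been carried from C57BL/6 onto BALB/c over 5 generations of backcrossing in a first round and 4 in a second. The newborn groups were wild type (2 libraries) and labelled Egr1-/- (2 libraries), and the adult groups were wild type (1 library) and labelled Egr1-/- (2 libraries). No exact adult age is used here. At day 3 after birth, single eyes of 4 mice were sequenced. Mice E24 and E29, both Egr1-/-, each gave 1 eye with an open and 1 with a closed eyelid. Both eyes of the Egr1-/- mouse E32 had open eyelids, and both eyes of the Egr1+/- mouse E28 had closed eyelids. The labels tie no newborn or adult library to an animal, and replicate spread at these ages, and the p-values built on it, may therefore be technical.

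The level of Egr1, the targeted gene, went against the genotype labels. It was 10.8 RPKM in the adult wild type and 15 to 19.7 RPKM in newborn wild types, but 60 to 83.3 RPKM in adult and 69.8 to 89.1 RPKM in newborn libraries labelled knockout. The heterozygous eyes held 32.3 to 35.9 RPKM and the day 3 eyes labelled knockout 51 to 119 RPKM. Counts taken over the whole transcript cannot tell a disrupted from an intact allele, and every group is called here by its label. Levels are given in RPKM, that is, reads per kilobase of exon scaled to the library total, with totals adjusted by the TMM method over the 15 libraries. The reads assigned to transcripts summed to 20334849 to 43907093 per library.

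In the dark, cyclic GMP keeps the channel made of Cnga3 and Cngb3 open. Light activates an opsin, the opsin activates transducin, and transducin releases the catalytic subunit Pde6c from its inhibitor Pde6h, so that cyclic GMP is broken down and the channel closes. Arr3 binds the activated opsin and ends the response. Rods use a parallel set of proteins encoded by other genes. In the mouse, cones are far outnumbered by rods, they arise before birth, and short-wave opsin is known to appear in them earlier than middle-wave opsin. Whole eyes mix these cells with many others, so that fewer cones and less RNA per cone cannot be told apart in any value below.

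Promoters of Opn1sw, Opn1mw and Gnat2 are shown because these genes start the cascade, each rose with age, and each window held a motif searched for. RefSeq promoter windows, which run from 250 bases before to 50 bases after a gene's start, were at hand for 6 of the 10 genes (7 windows, build GRCm38.p6). Capitals mark letters that match a motif on either strand. The motifs searched were TAATCC, the core site of Crx and Otx2, AGGTCA, a hexamer bound by nuclear receptors, and TATAAA, the TATA box. The sequences are written 5′ to 3′ on the strand of the gene.
Opn1sw, chr6:29380464-29380763, minus strand: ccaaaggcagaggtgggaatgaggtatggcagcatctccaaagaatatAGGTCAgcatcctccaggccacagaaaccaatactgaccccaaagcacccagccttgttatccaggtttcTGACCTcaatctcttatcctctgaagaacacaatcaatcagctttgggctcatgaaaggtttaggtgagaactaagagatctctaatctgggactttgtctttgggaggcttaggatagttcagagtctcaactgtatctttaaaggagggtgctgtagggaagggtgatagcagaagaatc
Opn1mw, chrX:74127216-74127515, plus strand: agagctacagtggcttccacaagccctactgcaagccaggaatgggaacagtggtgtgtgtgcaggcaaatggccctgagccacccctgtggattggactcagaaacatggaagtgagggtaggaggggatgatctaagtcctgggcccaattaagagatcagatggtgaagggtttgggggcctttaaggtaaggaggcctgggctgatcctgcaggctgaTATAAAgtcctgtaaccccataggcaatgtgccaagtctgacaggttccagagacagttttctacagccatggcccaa
Gnat2, chr3:108092816-108093115, plus strand: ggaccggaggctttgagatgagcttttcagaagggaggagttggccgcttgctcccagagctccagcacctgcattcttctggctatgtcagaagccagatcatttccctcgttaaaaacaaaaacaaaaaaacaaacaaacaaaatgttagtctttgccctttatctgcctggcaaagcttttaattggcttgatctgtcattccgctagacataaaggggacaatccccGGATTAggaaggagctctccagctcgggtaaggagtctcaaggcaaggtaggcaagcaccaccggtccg
The Opn1sw window held AGGTCA starting 202 bases before the start and its reverse complement 132 bases before it. The Opn1mw window held TATAAA starting 28 bases before the start, and the Gnat2 window held the reverse complement of TAATCC 19 bases before it. The second of the Cnga3 starts had a reversed TATAAA 122 bases upstream. The windows of Arr3, Pde6h and the first Cnga3 start held none of these letters. Among 32851 mouse promoter windows of the same length, AGGTCA was present in 16.3%, TATAAA in 13.6% and TAATCC in 7.06%, and no window shown here held more than 1 of the 3 motifs. A match is a run of letters and not a measured site.

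The opsins, which catch the light, followed different courses with age. Opn1sw, which is tuned to short wavelengths, stood at 18.3 and 20.5 RPKM in newborn wild types and at 2.02 and 5.31 RPKM in newborn eyes labelled knockout. At day 3 it lay between 11.1 and 19 RPKM in 7 of the 8 eyes and at 0.647 RPKM in the left eye of E32. The adult wild type held 108 RPKM and the adult eyes labelled knockout 48.8 and 117 RPKM. All 3 adult libraries were above all 12 younger ones. Opn1mw, the middle-wave opsin, had 1 to 6 reads in each newborn library and 0 to 2 reads in each day 3 eye. Adult libraries held 748 to 923 reads of it, or 34.7 RPKM in the wild type and 29.9 and 28.4 RPKM in the labelled knockouts. Day 3 eyes with 0 reads allow a true count of up to 3 reads, so that a trace of this opsin was not detectable there at this depth. In adult eyes Opn1sw exceeded Opn1mw 3.12-fold in the wild type, and 1.63-fold and 4.11-fold in the labelled knockouts. The ratio of the wild type lay between those of the labelled knockouts.

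The transducin genes did not rise together. Gnat2, the cone alpha subunit that carries the signal to the phosphodiesterase, stood at 5.64 and 6.49 RPKM in newborn wild types and at 0.86 and 1.86 RPKM in newborn labelled knockouts. Day 3 eyes held 3.73 to 9.4 RPKM except for 0.614 RPKM in the left eye of E32, and adult eyes held 37.8 (wild type), 25.7 and 35.9 RPKM. Gngt2, the cone gamma subunit, had its highest levels at birth. Newborn wild types held 104 and 86.7 RPKM of it and newborn labelled knockouts 11.4 and 24.4 RPKM. Day 3 eyes held 30 to 69 RPKM outside the left eye of E32, which held 5.98 RPKM, and adults held 23.9, 23.5 and 27.3 RPKM. Gngt2 is therefore the member whose adult levels lay below those of newborn wild types without overlap. Gnb3, the beta subunit that cones share with ON bipolar cells, was at 70.6 and 85.6 RPKM in newborn wild types and already close to the adult wild type at 83.5 RPKM. Newborn labelled knockouts held 10.2 and 20.6 RPKM, and day 3 eyes 19.5 to 67.2 RPKM beside 3.7 RPKM in the left eye of E32. Adult labelled knockout replicate 1 held 347 RPKM of Gnb3, far above the 70.1 RPKM of replicate 2.

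The phosphodiesterase subunits differed widely in level in most libraries. Pde6h and Pde6c were close in newborn labelled knockout replicate 1 (0.299 and 0.271 RPKM) and in the left eye of E32 (0.215 and 0.155 RPKM). Pde6h, the small inhibitory subunit, went from 12.4 and 13.2 RPKM in newborn wild types, and 0.299 and 3.58 RPKM in newborn labelled knockouts, to 68.1, 59.1 and 67.6 RPKM in adults. Day 3 eyes held 3 to 7.54 RPKM, with 0.215 RPKM in the left eye of E32. Pde6c, the catalytic subunit, reached 1.63 RPKM in the adult wild type and 1.75 and 1.23 RPKM in the adult labelled knockouts. It lay at 0.625 and 0.281 RPKM in newborn wild types, at 0.271 and 0.238 RPKM in newborn labelled knockouts and at up to 0.347 RPKM at day 3, where the left eye of E28 had 0 reads. Adult eyes stood above all younger eyes for both subunits.

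The channel genes were low throughout. Cnga3, the alpha subunit, was at 1.62 and 1.31 RPKM in newborn wild types, 0.162 and 0.67 RPKM in newborn labelled knockouts and 1.29, 1.33 and 1.24 RPKM in adults. Its day 3 eyes split. All 4 closed eyes held 1.69 to 1.83 RPKM, as did the open right eye of E24 with 1.7 RPKM, while the other open eyes held 0.832 (E29), 0.389 and 0.114 RPKM (E32). Cngb3, the beta subunit, was at 1.43 and 1.18 RPKM in newborn wild types, 0.149 and 0.343 RPKM in newborn labelled knockouts and 1.21, 1.09 and 1.02 RPKM in adults. Day 3 eyes held 0.0509 to 0.878 RPKM. For both subunits the newborn wild types and the adults lay in nearly the same range.

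Arr3, cone arrestin, was the gene most like Opn1mw in its course. It stood at 1.02 and 0.789 RPKM in newborn wild types, 0.103 and 0.384 RPKM in newborn labelled knockouts and 0.0307 to 0.337 RPKM at day 3, where 1 to 10 reads lay behind each value. Adults held 35.1 RPKM in the wild type and 17.2 and 24.4 RPKM in the labelled knockouts. As a measure of likeness, the root mean square difference between centred log2 CPM values over the 15 libraries was 1.69 between Arr3 and Opn1mw. It was 0.45 between Opn1sw and Gnat2, 0.53 between Cnga3 and Cngb3 and 4.25 between Opn1mw and Gngt2, the closest and the farthest pairs among the 10 genes being Opn1sw with Gnat2 and Opn1mw with Gngt2.

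**Figure D1:**
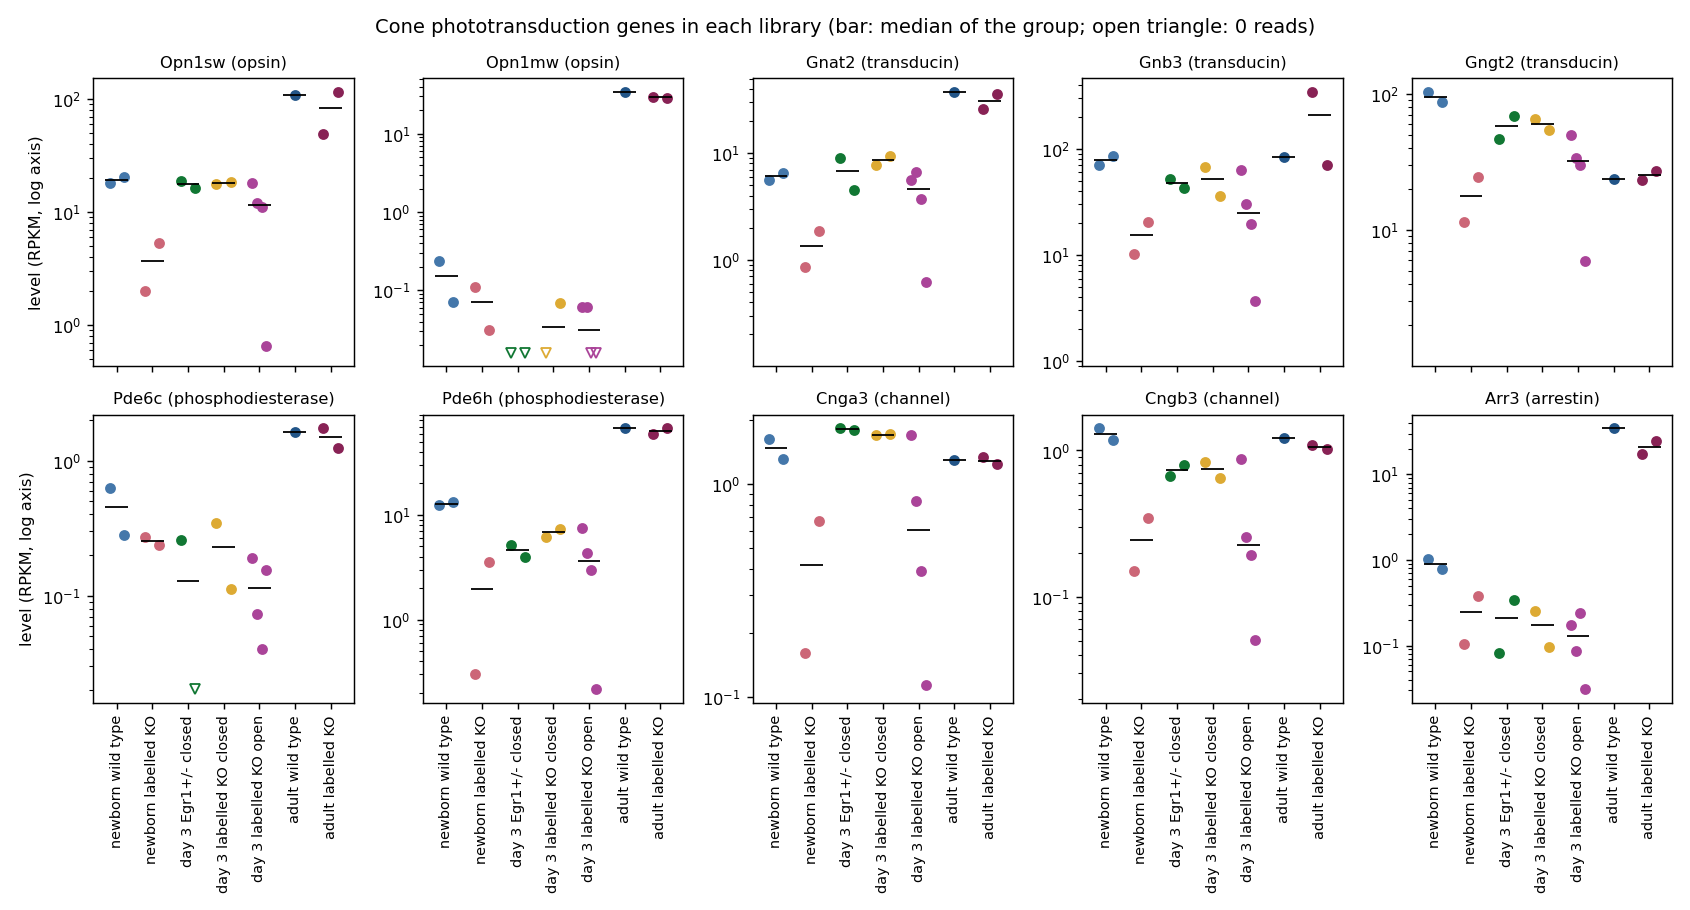
Level of each cone gene in RPKM (log axis) by group, with a point per library and a bar at the median of the group; open triangles at the foot of a panel mark libraries with 0 reads. Opn1mw had 0 to 6 reads in every library before adulthood, Gngt2 was highest in newborn wild types at 104 and 86.7 RPKM, and the left eye of E32 was the lowest day 3 eye for 8 of the 10 genes.

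In the adult wild type, which is a single library, the order of the levels was Opn1sw, Gnb3, Pde6h, Gnat2, Arr3, Opn1mw, Gngt2, Pde6c, Cnga3 and Cngb3. Gnat2, Arr3 and Opn1mw lay within 34.7 to 37.8 RPKM, and the last 3 genes within 1.21 to 1.63 RPKM. In the adult labelled knockouts, the levels were 82.7 ± 47.9 RPKM (SD, n = 2) for Opn1sw, 30.8 ± 7.2 RPKM (SD, n = 2) for Gnat2, 20.8 ± 5.05 RPKM (SD, n = 2) for Arr3 and 29.1 ± 1.09 RPKM (SD, n = 2) for Opn1mw. Gnat2 and Opn1mw thus differed there by less than the SD of Gnat2.

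Age was tested in 1 fit of the 7 newborn and adult libraries, with edgeR's quasi-likelihood test over 17592 genes and Benjamini-Hochberg adjusted p below 0.05 as the threshold. The age difference was averaged over the genotype labels. Of the 10 cone genes, 8 rose from newborn to adult and none fell, where 49.2% of all genes passed and 25.3% passed as higher. Opn1mw rose by a log2 fold change of 8.18 ± 0.31 (SE, adjusted p = 1.14e-05) and Arr3 by 5.84 ± 0.33 (adjusted p = 2.78e-05). The rise was 3.72 ± 0.52 for Pde6h, 3.56 ± 0.27 for Gnat2, 3.48 ± 0.42 for Opn1sw and 2.18 ± 0.36 for Pde6c, with adjusted p from 8.19e-05 to 0.0023. Gnb3 rose by 1.91 ± 0.52 (adjusted p = 0.0198) and Cngb3 by 0.98 ± 0.30 (adjusted p = 0.0311). Gngt2 at -0.76 ± 0.27 (adjusted p = 0.0521) and Cnga3 at 0.71 ± 0.44 (adjusted p = 0.216) did not pass. The fall of Gngt2 was called in 7 of 16 alternatives, DESeq2 among them. The median over the 10 genes was 2.83, against -0.0423 over all genes tested.

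The same fit gave the age difference under each label, and the difference between labels is the interaction given further on, in which no member passed by edgeR. Between the wild-type libraries (1 adult, 2 newborn, with the spread taken from the replicated groups of the fit), Gngt2 fell by 2.03 ± 0.45 on the log2 scale (adjusted p = 0.013), while Gnb3 (0.06 ± 0.82), Cngb3 (-0.15 ± 0.47) and Cnga3 (-0.22 ± 0.68) did not pass. Between the labelled knockouts, Gnb3 rose by 3.75 ± 0.75 (adjusted p = 0.00697) and Cngb3 by 2.11 ± 0.41 (adjusted p = 0.0064), and Gngt2 stood at 0.51 ± 0.34 (adjusted p = 0.277). Opn1sw, Opn1mw, Arr3, Gnat2, Pde6c and Pde6h rose under either label, the wild-type side resting on 1 adult library. With reads scaled to 12 inner retina genes in place of the whole library, which moved the median of all genes from -0.0423 to -1.17, the same comparison gave 5 rises and 1 fall among the cone genes. The fall was that of Gngt2, by 1.89 ± 0.30 on the log2 scale (adjusted p = 0.000874). The rises were those of Opn1mw, Arr3, Pde6h, Gnat2 and Opn1sw (7.06, 4.72, 2.6, 2.44 and 2.38). Cngb3 turned to -0.15 and Cnga3 to -0.42. All values on this scale, the fall of Gngt2 among them, include the shift of all genes. The share of all genes called on it is not given here.

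Day 3 could be placed between these ages only within the knockout label, which all 3 ages hold, and age cannot be told apart there from the set of libraries. Reads of the eyes of a mouse were summed, giving 3 mice at day 3 against 2 newborn and 2 adult libraries. The age comparisons share these newborn and adult libraries and are set side by side only. From day 3 to adult, 7 of the 10 genes rose and none fell, where 49.4% of 16315 genes passed and 23.6% passed as higher. Opn1mw, with 6 reads over the 6 day 3 eyes of these mice, rose by a fitted 9.73 ± 0.71 (adjusted p = 0.00033) and Arr3 by 7.12 ± 0.58 (adjusted p = 0.000447). Pde6h (3.73 ± 0.89), Pde6c (3.32 ± 0.58), Opn1sw (2.67 ± 0.62), Gnb3 (2.51 ± 0.85) and Gnat2 (2.47 ± 0.55) rose with adjusted p from 0.00436 to 0.0463. Cngb3 (1.16), Cnga3 (0.28) and Gngt2 (-0.64 ± 0.52) did not pass. Without adult labelled knockout replicate 1, Gnb3 stood at 0.93 (adjusted p = 0.429), and without replicate 2, 4 of the 7 passed, since Opn1sw, Gnat2 and Pde6h were lost.

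From newborn to day 3, none of the 10 genes passed by edgeR, where 11.8% of 16315 genes did. An unadjusted p under 0.05 was held by 2 members and by 5588 of all genes, and DESeq2 called the same 2 members. These were Gnat2 at 2.05 ± 0.62 (adjusted p = 0.0729) and Opn1sw at 1.84 ± 0.67 (adjusted p = 0.107). Gngt2 (1.16 ± 0.53), Cnga3 (1.37 ± 0.90), Pde6h (1.32 ± 0.95), Gnb3 (1.26 ± 0.89) and Cngb3 (0.96 ± 0.80) had positive and Arr3 (-0.68 ± 0.61) and Pde6c (-0.76 ± 0.59) negative estimates. Opn1mw had a handful of reads in either group and is given no fold change. The values rested on E32, since Gnat2, Opn1sw and Gngt2 passed as higher without that mouse (2.40 for Gnat2, adjusted p = 0.0101). Over all alternatives the adjusted p of Gnat2 ran from 0.00353 to 0.459. Scaled to the inner retina genes, which moved the median of all genes to -1.46, Gnat2 stood at 0.4. Arr3 (-2.16 ± 0.70), Pde6c (-2.35 ± 0.62) and Opn1mw passed as lower on that scale, and their values include the shift of all genes. The Opn1mw call rested on 5 newborn and 6 day 3 reads.

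**Figure D2:**
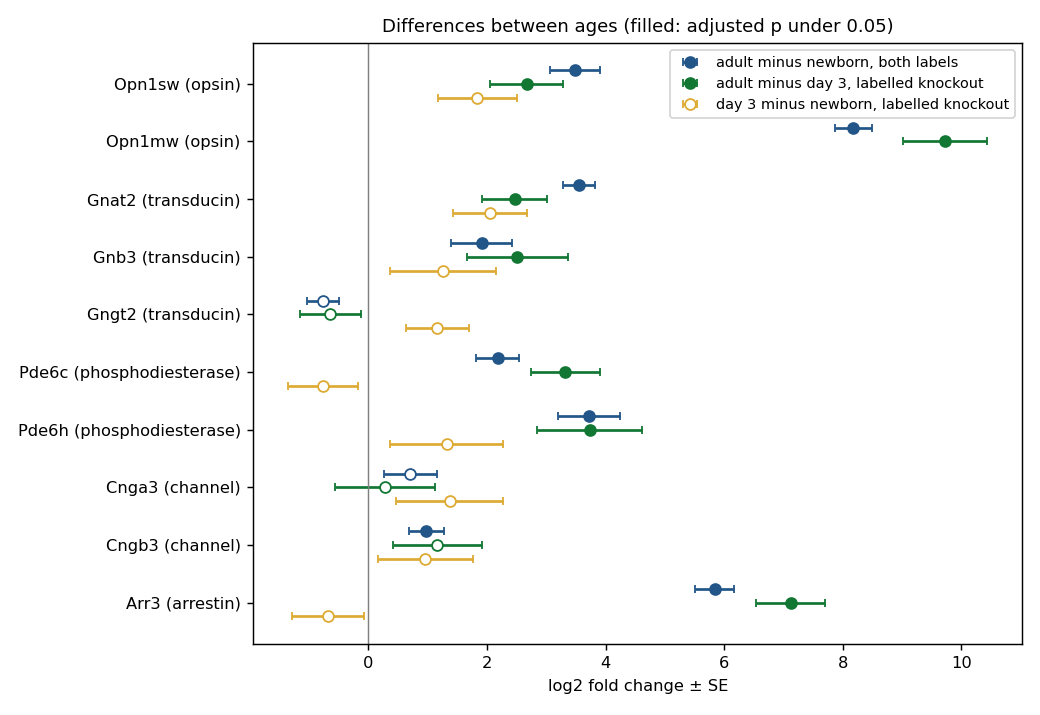
Log2 fold change between ages for each cone gene, with bars of 1 SE and filled points where the adjusted p was under 0.05; the value of Opn1mw from newborn to day 3 is left out because both groups held a few reads. Opn1mw at 8.18 and Arr3 at 5.84 stand farthest to the right in the comparison of adult with newborn eyes, and Gngt2 at -0.76 is the member left of 0 there.

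The rod genes give a scale for these courses. Of 9 rod counterparts tested, all 9 rose from newborn to adult with a median log2 fold change of 6.64, against 2.83 over the cone genes. Gnat1, the rod transducin alpha subunit, rose by 12.14 ± 0.68 (adjusted p = 2.71e-05), Pde6a by 9.01 ± 0.25 and Cnga1 by 6.64 ± 0.23 (each adjusted p = 1.06e-05). Before adulthood the cone form was the more abundant for the transducin alpha and gamma subunits and the rod form at other steps. Gnat1 stood at 0.211 to 0.463 of the level of Gnat2 in newborn eyes and at 0.106 to 0.441 of it at day 3, but at 110 to 140 times its level in adults. Gngt1, the rod gamma subunit, held 0.0303 to 0.0814 of the level of Gngt2 in newborn eyes, 0.0144 to 0.0317 at day 3 and 7.4 to 12.9 times its level in adults. Sag, rod arrestin, was instead 32.2 to 75.8 times as abundant as Arr3 already in newborn eyes, Pde6g 1.87 to 5.96 times as abundant as Pde6h and Cnga1 1.26 to 4.73 times as abundant as Cnga3. Pde6a and Pde6c were close at birth, with ratios of 0.997 to 1.74. At day 3 Cnga1 stood at 0.307 to 1.79 of the level of Cnga3. Gnb1, which pairs with Gnb3 here, is expressed in many cell types and stood at 2.19 to 14 times the level of Gnb3 in newborn eyes.

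**Figure D3:**
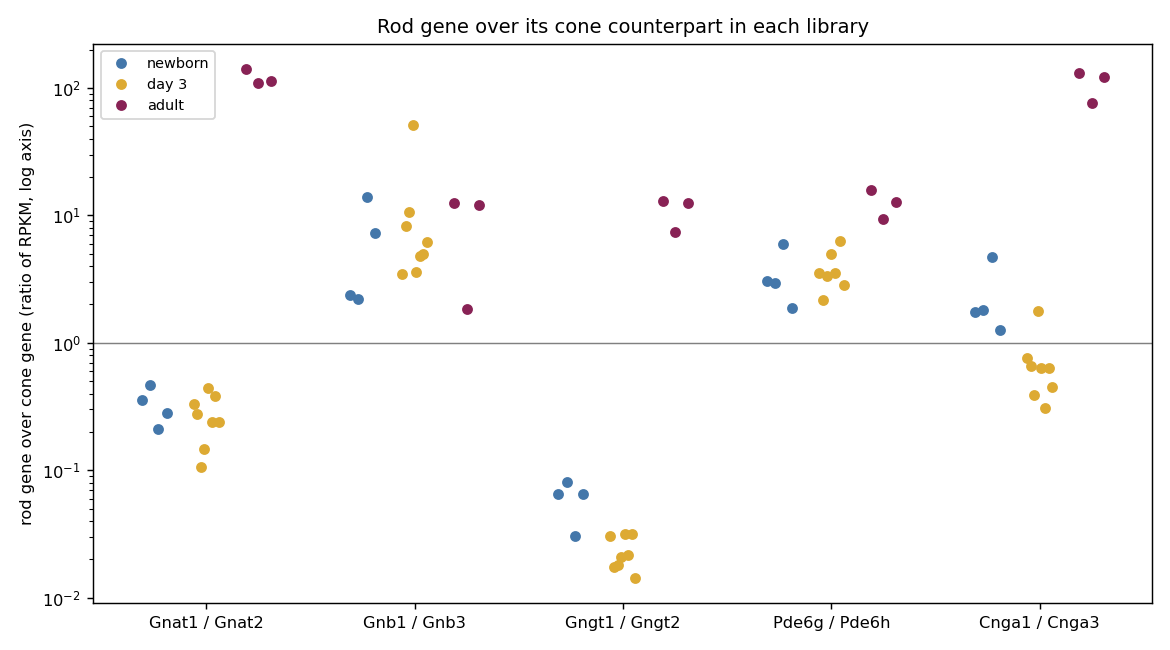
Ratio of the RPKM of a rod gene to that of its cone counterpart (log axis) in each library, coloured by age; libraries with 3 or fewer reads of the cone gene are left out. The line marks equal levels, Gnat1 over Gnat2 and Gngt1 over Gngt2 lie below it in every newborn and day 3 library, and all adult ratios lie above it.

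The newborn comparison asked whether the genotype label made a difference at birth. Eyes labelled knockout held less of the cone transcripts. Of the 10 genes, 6 fell and none rose, where 24% of 17592 genes passed and 9.38% passed as lower. The falls were in Pde6h (-2.76 ± 0.73, adjusted p = 0.0336), Opn1sw (-2.42 ± 0.55, adjusted p = 0.0196), Gngt2 (-2.42 ± 0.35, adjusted p = 0.00489), Cngb3 (-2.42 ± 0.41, adjusted p = 0.00756), Gnat2 (-2.17 ± 0.36, adjusted p = 0.00729) and Arr3 (-1.93 ± 0.52, adjusted p = 0.0363). Gnb3 at -2.35 ± 0.70 (adjusted p = 0.0502) and Cnga3 at -1.83 ± 0.58 (adjusted p = 0.06) lay just past the threshold. Opn1mw (-0.99 ± 0.71, on 8 reads against 5) and Pde6c (-0.83 ± 0.49) did not pass. Both labelled knockout libraries stood below both wild types for 9 of the 10 genes, as they did for 33.8% of all genes, with overlap in Opn1mw alone. The median over the 10 genes was -2.26, against -0.0665 over all genes.

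These calls needed both newborn wild types. Without wild-type replicate 1, none of the 10 genes passed by edgeR and no gene of the table passed, although 4735 genes had an unadjusted p under 0.05, and without replicate 2 none of the 10 passed while 728 genes of the table did; the medians of the 10 were then -2.25 and -2.13. DESeq2 called 8 of the 10 with all libraries.

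Other retinal cells moved the same way. The summed level of the inner retina genes was 200 and 221 RPKM in newborn wild types and 75.6 and 83.5 RPKM in labelled knockouts, and that of the retinal progenitor genes 1160 and 1280 RPKM against 220 and 327 RPKM. Of 12 inner retina genes 9 fell (median -1.94), and all 10 progenitor genes fell (median -2.17). Of 8 epidermal genes 5 rose, from a sum of 547 to 960 RPKM in wild types to 4260 to 5670 RPKM in labelled knockouts. All 4 neutrophil genes rose, from 3.02 to 3.84 RPKM to 54.4 to 98.3 RPKM, as did 3 of 8 muscle genes. None of 12 lens genes passed, and they summed to 628 RPKM in labelled knockout replicate 1, against 64900 RPKM in replicate 2 and 70300 to 74900 RPKM in wild types. With reads scaled to the sum of the 12 inner retina genes, the median of the cone genes was -1.1 and that of all genes 1.1. Of the cone genes 3 remained called, namely Gngt2 (-1.28 ± 0.36, adjusted p = 0.0139), Cngb3 (-1.28 ± 0.45, adjusted p = 0.0337) and Gnat2 (-1.01 ± 0.38, adjusted p = 0.044). On that scale Opn1mw (0.13) and Pde6c (0.30) turned positive. All values on it include the shift of all genes, and the share of all genes called on it is not given here. The 12 genes did not move alike with TMM scaling, running from -2.44 (Calb2) to 0.62 (Rbpms). Their median was then -1.94, against -2.26 for the cone genes. The value of -1.1 is therefore no measure of a cone difference beyond that of the inner retina. How far the share of retina in the sampled tissue set the newborn difference was not tested.

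Some members lie over a gene on the opposite strand, and the libraries keep no strand, so that reads in shared exons cannot be told apart. In the GRCm38 annotation (GENCODE M21), with all transcripts of a gene merged, Opn1sw shares 397 exonic bases with Calu, Gngt2 shares 234 with Abi3, and Pde6h shares 136 with Arhgdib. Whether the mm8 transcripts behind the counts hold these bases was not checked. In the newborn comparison these partners did not fall with the members. Calu stood at 65.4 and 72.4 RPKM in newborn wild types and at 125 and 116 RPKM in newborn labelled knockouts, Abi3 at 4.6 and 5.68 RPKM against 11.7 and 10.3 RPKM, and Arhgdib at 20.9 and 19.7 RPKM against 96.1 and 50.5 RPKM. Each partner was higher in both newborn labelled knockouts than in both newborn wild types. With age, Arhgdib went the same way as Pde6h. It stood at 156 RPKM in the adult wild type and at 165 and 181 RPKM in adult labelled knockouts. In the same order, Calu stood at 51.2, 57 and 56.3 RPKM and Abi3 at 12.9, 13.4 and 7.17 RPKM. The part of partner reads in the levels of the members was not tested.

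In adult eyes, labelled knockouts were set against the lone wild-type library, whose spread was taken from the replicated groups. None of the 10 genes passed by edgeR, none had an unadjusted p under 0.05 and none passed by DESeq2; of all genes 0% passed by edgeR, 506 had an unadjusted p under 0.05 and DESeq2 called 107. The values were -0.73 ± 0.40 for Arr3, -0.36 ± 0.62 for Opn1sw, -0.27 ± 0.39 for Gnat2 and -0.23 ± 0.32 for Opn1mw. Cngb3 (-0.17 ± 0.46), Pde6c (-0.10 ± 0.54), Pde6h (-0.08 ± 0.74), Cnga3 (0.03 ± 0.68) and Gngt2 (0.11 ± 0.41) lay nearer to 0. Gnb3 stood at 1.34 ± 0.87 (adjusted p = 1) and at -0.22 without adult labelled knockout replicate 1. In that library the neighbours of Gnb3 on chromosome 6 were at 14.7 RPKM (Leprel2) and 2.99 RPKM (Cdca3), against 9.91 and 10.6 RPKM and 3.18 and 4.45 RPKM in the other adults. The 11 bipolar cell genes measured summed to 493 RPKM there and to 416 and 372 RPKM in the other adults. The lens genes summed to 6280 RPKM in it, against 29200 and 37700 RPKM. The sum of the neutrophil genes was 55.7 and 62.5 RPKM in the adult labelled knockouts, with the wild type at 3.11 RPKM. The part of these other cells in the level of Gnb3 was not tested.

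**Figure D4:**
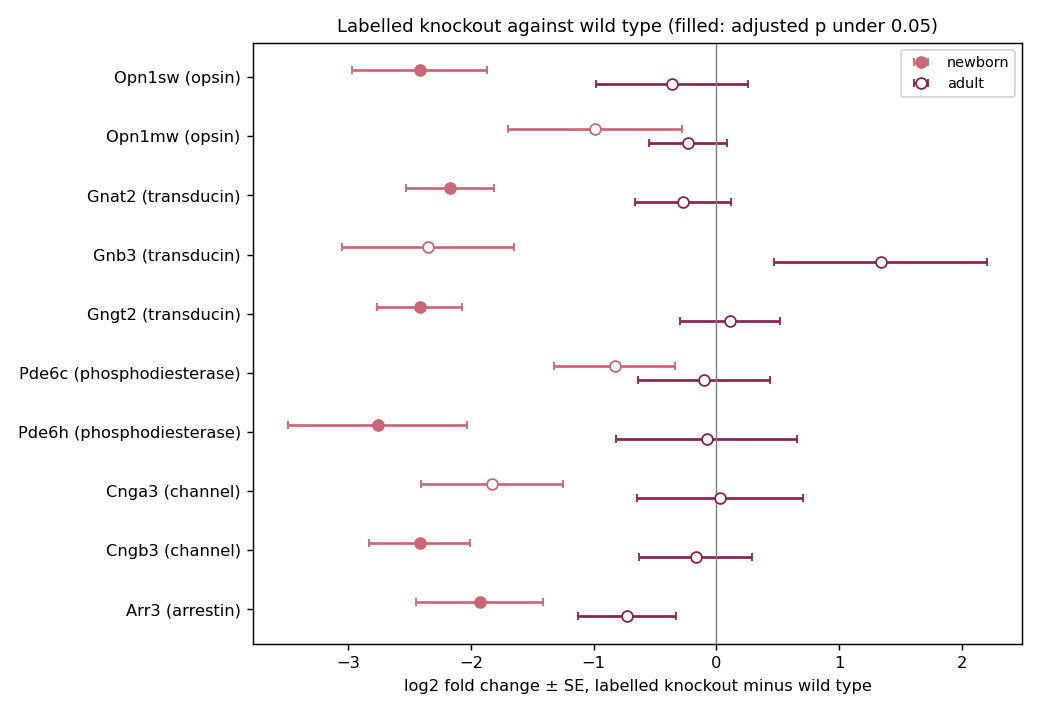
Log2 fold change of labelled knockout against wild type for each cone gene in newborn (2 against 2 libraries) and adult eyes (2 against 1), with bars of 1 SE and filled points where the adjusted p was under 0.05. The newborn points lie between -2.76 and -0.83 and the adult points between -0.73 and 1.34, none of the adult points being filled.

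Whether the effect of the label differed between ages was tested as an interaction. None of the 10 genes passed by edgeR, where 2.8% of 17592 genes did. An unadjusted p under 0.05 was held by 6 of the 10 and by 3638 of all genes, and DESeq2 called 3 of the 10. All 10 estimates were positive, with a median of 1.98. Other retinal lists had positive medians too, at 2.1 for inner retina genes (4 of 12 called higher) and 2.14 for progenitor genes (4 of 10). Rod counterparts stood at 2.26 (0 of 9) and bipolar genes at 1.45 (1 of 11). Epidermal and muscle genes had medians of -2.04 and -1.79. The smallest adjusted p belonged to Gngt2 (2.53 ± 0.55, adjusted p = 0.0591), followed by Cngb3 (2.26 ± 0.63, adjusted p = 0.101), Gnat2 (1.91 ± 0.55, adjusted p = 0.104), Gnb3 (3.69 ± 1.15, adjusted p = 0.126), Pde6h (2.69 ± 1.07, adjusted p = 0.217) and Opn1sw (2.06 ± 0.84, adjusted p = 0.227). Cnga3 stood at 1.86 ± 0.91, Arr3 at 1.2 ± 0.67, Opn1mw at 0.77 ± 0.77 and Pde6c at 0.73 ± 0.74. Over the alternatives the adjusted p of Gngt2 ranged from 0.000781 to 0.241. Without adult labelled knockout replicate 1, 4 of the 10 passed, and without replicate 2 of that group 2 passed. Without newborn labelled knockout replicate 2, 5 passed. The number of genes called in the whole table also changed widely over the alternatives, as given further on. The share of all genes under each setting is not given here, and these counts are descriptions only. Scaled to the inner retina genes, Opn1mw, Pde6c and Arr3 turned negative (-0.45, -0.51 and -0.01) and the median of all genes moved from 0.0752 to -1.18.

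At day 3, open and closed eyelids were compared with the mouse as a block, so that the estimate came from E24 and E29. None of the 8 cone genes with enough reads passed and none had an unadjusted p under 0.05, where 0.514% of 15754 genes passed; DESeq2 called none of the 8 either. Opn1mw and Arr3 had too few reads to be tested. All 8 estimates were negative, from -0.74 ± 1.36 (Pde6c), -0.59 ± 0.68 (Cngb3), -0.51 ± 0.62 (Gngt2), -0.49 ± 0.57 (Cnga3) and -0.48 ± 0.71 (Gnat2) to -0.28 ± 0.94 (Opn1sw), -0.22 ± 0.91 (Pde6h) and -0.16 ± 0.61 (Gnb3), with a median of -0.49 and each smaller than its SE. The 2 mice differed. In E24, Opn1sw was at 18.1 RPKM in the open and 17.8 RPKM in the closed eye, and Cnga3 at 1.7 and 1.69 RPKM. In E29, Opn1sw was at 12.1 and 18.6 RPKM, Cnga3 at 0.832 and 1.71 RPKM and Cngb3 at 0.257 and 0.653 RPKM. Gnat2 was lower in the open eye of both mice, at 5.56 and 7.79 RPKM in E24 and at 6.6 and 9.4 RPKM in E29, as was Gngt2 with 49.6 and 65.8 RPKM and with 34.1 and 54 RPKM. Epidermal genes, of which 3 of 8 rose with the open eyelid, summed to 2020 RPKM in the open and 559 RPKM in the closed eye of E24 and to 3360 and 749 RPKM in E29; their part in the values of the cone genes was not tested.

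Eyes of the same mouse could differ more than eyelid states did. In E32, where both eyes were open, Opn1sw was at 11.1 RPKM on the right and 0.647 RPKM on the left, and Gnb3 at 19.5 and 3.7 RPKM. The 10 genes summed to 68.2 and 11.5 RPKM in these eyes and to 88.4 to 168 RPKM in the other 6 day 3 eyes. In the left eye of E32 the progenitor genes summed to 159 RPKM (944 RPKM on the right, 1480 to 2210 RPKM in the others) and the inner retina genes to 123 RPKM (174 RPKM on the right, 301 to 395 RPKM in 5 of the other 6 eyes). Its lens genes, at 86500 RPKM, lay within the 72900 to 105000 RPKM of the other eyes. The sum of the cone genes was 0.0939 of the inner retina sum there and 0.3 to 0.506 of it in the other 7 eyes. Abi3, the antisense partner of Gngt2, was highest in this eye at 35.2 RPKM. Epidermal genes summed to 5090 RPKM in it and 7850 RPKM in the right eye of E32, against 2020 and 3360 RPKM in the other open eyes and 559 to 1190 RPKM in closed eyes. The part of these other tissues in the level of the cone genes was not tested.

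Against the heterozygous mouse E28, the 3 mice labelled knockout showed no call among the 9 cone genes tested by edgeR, where 0% of 16453 genes passed, 273 had an unadjusted p under 0.05 and DESeq2 called 93, none of them a cone gene. Estimates were -0.74 ± 0.99 for Cnga3, -0.59 ± 1.04 for Cngb3, -0.48 ± 0.60 for Gngt2, -0.41 ± 0.58 for Opn1sw, -0.37 ± 0.85 for Gnb3 and -0.35 ± 1.02 for Arr3. They were -0.30 ± 0.71 for Gnat2, 0.06 ± 0.89 for Pde6h and 0.10 ± 1.07 for Pde6c, with a median of -0.37 over the 9 genes, and Opn1mw was not tested. For that fit the single Egr1+/- mouse was given the spread seen among the 3 labelled knockout mice. With closed eyes alone the median was 0.12, and without E32 it was -0.08.

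**Figure D5:**
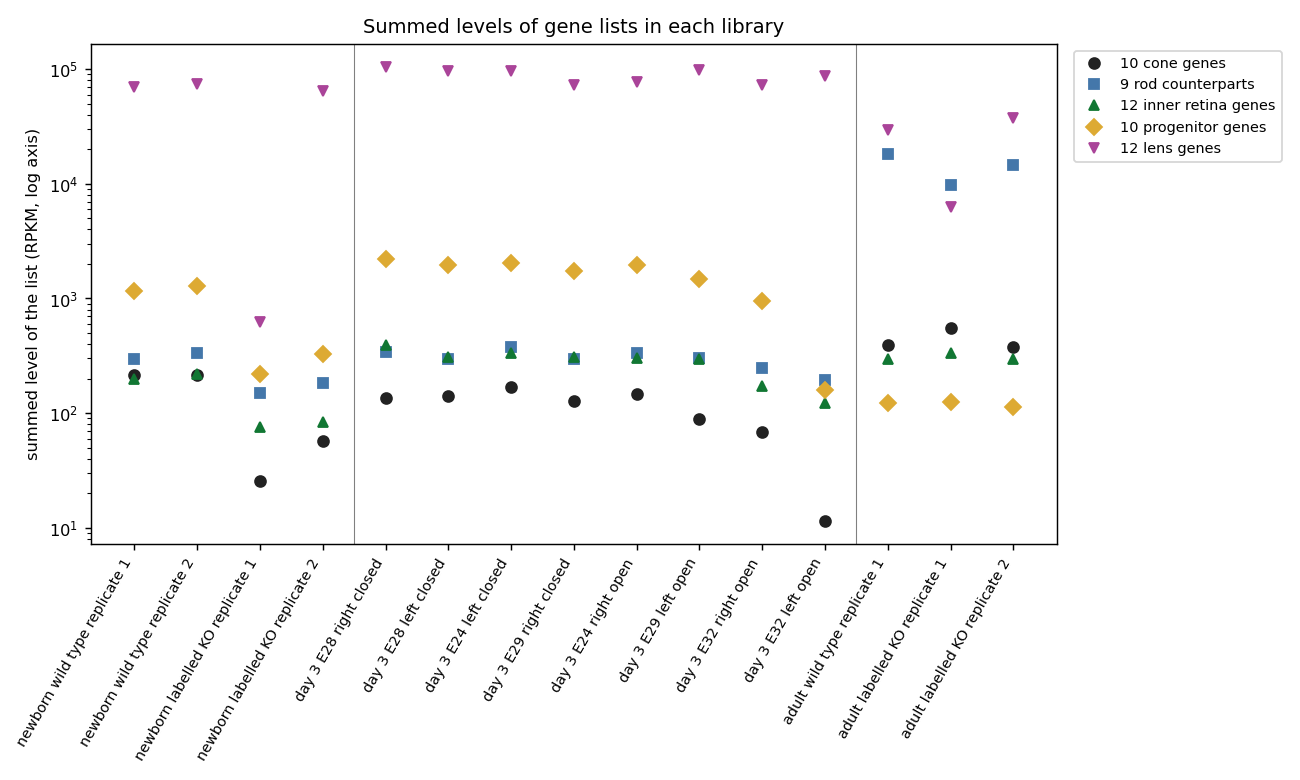
Summed RPKM (log axis) of the cone genes and of rod, inner retina, retinal progenitor and lens genes in each library, with vertical lines between newborn, day 3 and adult libraries. The cone sum was lowest in the left eye of E32 (11.5 RPKM) and in the newborn labelled knockouts (25.6 and 57.5 RPKM), where the inner retina and progenitor sums were low too, while the lens sum was low in newborn labelled knockout replicate 1 (628 RPKM) and adult labelled knockout replicate 1 (6280 RPKM).

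Genes that act around the cascade followed the same pair of contrasts. Of 16 genes of shut-off, recovery and feedback, 15 rose from newborn to adult with a median of 4.99. Those with the smallest p were Guca1a, a calcium sensor that activates guanylate cyclase (6.86 ± 0.24), Rgs9bp, which anchors the GTPase-activating complex (6.27 ± 0.23), Gucy2e, a guanylate cyclase (5.45 ± 0.22), and Rdh8, which reduces released retinal (6.14 ± 0.25), each with an adjusted p of 1.06e-05 to 1.28e-05. In newborn eyes 9 of these 16 fell in labelled knockouts with a median of -1.64, among them Rdh8 (-3.07 ± 0.39, adjusted p = 0.00366), Gucy2e (-2.01 ± 0.28, adjusted p = 0.00465), recoverin (Rcvrn, -3.00 ± 0.43, adjusted p = 0.00485) and Rd3, a regulator of the cyclases (-2.90 ± 0.45, adjusted p = 0.00582). Rod counterparts fell in 8 of 9 cases with a median of -2.72, for example Pde6g (-3.19 ± 0.59, adjusted p = 0.00983) and Gngt1 (-2.87 ± 0.62, adjusted p = 0.0165).

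Transcription factors of photoreceptors split with age. Of 16, 7 rose and 2 fell from newborn to adult. Thrb, the thyroid hormone receptor needed for middle-wave opsin in mouse cones, rose by 2.16 ± 0.12 (adjusted p = 2.72e-05), Rora by 2.46 ± 0.14 (adjusted p = 3.02e-05) and Esrrb, known for its role in rods, by 5.78 ± 0.34 (adjusted p = 3.25e-05), while Nr2f1 fell by 1.83 ± 0.17 (adjusted p = 0.000168). Thrb stood at 2.08 and 2.32 RPKM in newborn wild types and at 9.48 RPKM in the adult wild type. In newborn labelled knockouts 9 of the 16 fell and 1 rose, with Rorb (-1.80 ± 0.30, adjusted p = 0.00691), Neurod1 (-2.38 ± 0.45, adjusted p = 0.0102), Otx2 (-2.02 ± 0.38, adjusted p = 0.0106) and Nr2e3 (-2.81 ± 0.54, adjusted p = 0.0112) at the smallest p. Thrb did not pass (-0.17 ± 0.16, adjusted p = 0.455). Bipolar genes, of which 9 of 11 rose with age (median 4.21), fell in 3 of 11 cases in newborn labelled knockouts, among them Isl1 (-1.87 ± 0.23) and Pcp2 (-1.74 ± 0.39). Gene lists and members share these samples and were chosen with earlier results known, and their counts are descriptions.

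Genes outside the set with the course most like that of each opsin were found by the root mean square difference of centred log2 CPM over the 15 libraries. The search covered 12749 named genes with a mean of at least 1 RPKM, a level that a gene can reach through its adult libraries alone. Closest to Opn1sw were Tulp1 (0.38) and Nrl (0.39), genes of photoreceptor transport and of rod fate, then Chrna6 (0.43), Cacna2d4 (0.43) and Rom1 (0.46). Tulp1 stood at 66.6 and 80.2 RPKM in newborn wild types, at 7.13 and 17.2 RPKM in newborn labelled knockouts, at 4.28 RPKM in the left eye of E32 and at 209 to 321 RPKM in adults. Among the closest to Opn1mw were Bhlhe23 (1.15), Rpe65 (1.2), Gucy2f (1.22) and Cnga1 (1.27). Rpe65, the isomerase of the pigment epithelium that renews the chromophore, lay at or below 0.516 RPKM before adulthood and at 43.5 to 87.9 RPKM in adults.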

How the data were processed

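Whole eyes with eyelids gave poly(A)+ RNA libraries, amplified by 18 PCR cycles and sequenced on a HiSeq 2000, per the labels' protocols. The deposited tables give, per transcript, a read count and an RPKM that the authors scaled to their own library total. The submitters' processing notes name TopHat2 2.0.11, Bowtie 0.12.9, CASAVA 1.8, SAMtools and the build mm8. The protocols mention both a fixative and RNAlater and do not say which eyes each concerns. Counts of 1 transcript per symbol, 20418 symbols in all, were tested with edgeR 4.0.16 in R 4.3.3 (TMM scaling, filterByExpr, quasi-likelihood test, Benjamini-Hochberg adjusted p under 0.05). DESeq2 1.42.0 was an alternative. SE is the log2 fold change divided by the root of F. RPKM values in the text were recomputed from the counts with TMM-adjusted totals. The procedure was also run on simulated counts with a fixed spread that was not taken from these data. That run checks the code alone and says nothing of error rates here. Precision follows from the read counts, and floors of 3 reads cover counting error only. All 10 genes are named in each comparison that tested them, Opn1mw from newborn to day 3 by its reads alone. From each other list, its counts and up to 4 genes with the smallest p are named, besides rod counterparts of cone genes, the antisense partners and the neighbours of Gnb3. Members and lists were chosen with earlier results of these data known. Rod, bipolar, inner retina, epidermal and neutrophil lists lost Cngb1, Lrit3, Flg and Cxcr2, among others, which are not used here. A few other listed genes are not reported here.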

Additional observations from a re-analysis of the deposited data

How the results depend on the processing

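In the newborn comparison, scaling to inner retina genes left 3 of the 10 genes called, and leaving out 1 library at a time gave 0 to 8. The other alternatives gave 5 to 8, among them 5 with a replicate block. That fit, which called 3768 genes of the table, turned Arr3 to an adjusted p of 0.0501. The replicate numbers did not pair the libraries, since the correlation of replicate differences was 0.0682 over 17592 genes. From day 3 to adult in labelled knockouts, 4 to 7 genes passed without 1 library or mouse. The interaction of age and label gave 1 call with no filter on low counts, 3 with DESeq2, 1 with the authors' library totals (an alternative chosen after seeing the data) and 0 to 5 without 1 library. From newborn to day 3, DESeq2 gave 2 calls, inner retina scaling 3, and leaving out 1 library or mouse 0 to 3. Gnb3 in adults turned from 1.34 to -0.22 without labelled knockout replicate 1 and stood at 2.08 without replicate 2. Cngb3 from newborn to adult turned to -0.15 with inner retina scaling and to -0.15 in wild-type libraries alone, and Gngt2 turned to 0.51 in labelled knockouts alone. The causes of these changes were not tested. Over all alternatives, the genes called in the whole table ran from 0 to 12161 (newborn, 4226 as reported), 0 to 205 (adult), 0 to 9713 (interaction), 0 to 400 (open eyelid), 0 to 93 (knockout and heterozygous mice), 0 to 10638 (newborn to day 3), 4280 to 8988 (day 3 to adult) and 5734 to 12761 (newborn to adult). The authors' totals moved the median of all genes to -0.242 and 0.25 in the comparisons of day 3 with newborn and adult eyes. No value could be had without mouse E28 for the heterozygous comparison or without the adult wild type for the adult contrasts. Read depth limits Opn1mw before adulthood and Arr3 and Pde6c at day 3, where 0 to 22 reads lie behind each value.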

Other observations

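Adult labelled knockout replicate 1, the library with 347 RPKM of Gnb3, stood apart from the other adults in genes that are not part of the cone cascade. These genes were chosen after their values were seen, and no test was made. Edn2, an endothelin known to be made by stressed photoreceptors, was at 46.6 RPKM in that library and at 1.73 RPKM in the adult wild type and 2.27 RPKM in labelled knockout replicate 2. Fgf2, a growth factor, was at 25.5 RPKM against 2.38 and 2.4 RPKM. Gfap, a filament protein of glia, was at 93.1 RPKM against 23.2 and 6.18 RPKM. Gfap also varied widely at day 3, at 161 RPKM in the right and 3.1 RPKM in the left eye of E28. Obp1a, an odorant-binding protein of glands, was at 1180 RPKM against 0.364 and 5.01 RPKM. Gpr162, which lies near Gnb3 on chromosome 6, was at 55.4 RPKM against 35.1 and 30.8 RPKM. Among the cone genes, the same library held the lowest adult Opn1sw at 48.8 RPKM and the lowest adult Arr3 at 17.2 RPKM. It also held the highest adult Pde6c at 1.75 RPKM and the highest adult Cnga3 at 1.33 RPKM.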
